A study of Mus musculus with 13 samples.

Results

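The Zfp genes are the mouse genes whose symbol is Zfp followed by a number, and most encode C2H2 zinc finger proteins. They were taken by symbol from 6 ChIP-seq peak lists of 4T1 cells, a mouse mammary tumour line. A total of 312 of the 18562 genes with a listed peak carried such a symbol. A gene was called clustered when another Zfp gene lay within 100 kb of it, edge to edge, and isolated otherwise. The edges were those of the gene body where a list of gene body peaks held the gene. For the other genes they lay 4 kb on either side of the start site. By this rule 170 genes in 43 clusters were clustered and 142 were isolated. Just inside the limit, by these edges, were Zfp60, at 99.2 kb from its neighbour, and Zfp263, at 99.1 kb. Just outside it were Zfp605 and Zfp932, at 109.6 kb from each other. With the gene body taken for every gene, 172 genes were clustered.

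H3K4me3 and H3K27me3 were profiled in sg-Ctrl cells, which carry a non-targeting guide RNA, and in KO-N13 (KO) cells, which carry a guide against an exon of Nup210. Both lines received Cas9 from an adenovirus for a limited time and share the puromycin-selected guide vector. KO-N13 is 1 single-cell clone, so the knockout and the choice of clone cannot be told apart. The nucleoporin NUP210 and the nuclear pore complex (NPC, with an antibody to several pore proteins) were profiled in sg-Ctrl cells alone. Each condition had 1 library, so no difference between KO and sg-Ctrl could be tested over replicates.

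C2H2 zinc finger proteins bind DNA through repeated fingers, each held by a zinc ion, and they form one of the largest families of transcription factors in mammals. Many also carry a KRAB domain, which recruits the co-repressor TRIM28 and, through it, the histone methyltransferase SETDB1, and many KRAB proteins silence retroelements. KRAB zinc finger genes arose largely by local duplication and stand in tandem clusters. H3K4me3 marks the start sites of active or poised genes, and H3K27me3 is the mark of Polycomb silencing.

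The clustered and isolated genes differed in what they encode. A KRAB box was found by sequence pattern in 116 of 168 clustered genes with a protein, or 69.0% (95% Wilson interval 61.7 to 75.5%). It was found in 39 of 139 isolated genes, or 28.1% (21.3 to 36.04%). The median protein had 12 fingers in clustered genes and 9 in isolated ones. The median clustered gene was 13.96 kb long and the median isolated gene 19.1 kb. Chromosome 7 alone held 81 Zfp genes, 64 of them clustered, and chromosome 17 held 38, with 28 clustered.

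The start sites printed here show the range of the chromatin states described here. The RefSeq sequences run 5′ to 3′ on the gene's strand, from 250 bases before to 50 bases after the annotated start, in build GRCm38.p6, with each CG dinucleotide in capitals. Zfp422 (minus strand, chr6:116628652-116628951) had the largest loss of H3K4me3 among Zfp genes. Its sequence holds 32 CG, a number reached by 9.52% of the 32851 RefSeq promoters of this length. Zfp764 (minus strand, chr7:127406773-127407072) had the largest rise of H3K4me3 per kb, in a narrower KO peak, and its sequence holds 6 CG, a number reached by 56.4% of promoters. Zfp57 (plus strand, chr17:37000913-37001212), which protects genomic imprints, had H3K27me3 and no H3K4me3 peak in either line, and also holds 6 CG.
Zfp422: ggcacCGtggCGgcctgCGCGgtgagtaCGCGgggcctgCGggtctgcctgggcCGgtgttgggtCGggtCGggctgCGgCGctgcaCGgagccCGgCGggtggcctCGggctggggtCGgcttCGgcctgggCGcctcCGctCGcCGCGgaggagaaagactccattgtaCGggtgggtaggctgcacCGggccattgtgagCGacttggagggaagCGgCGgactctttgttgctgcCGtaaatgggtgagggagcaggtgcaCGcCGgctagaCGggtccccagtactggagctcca
Zfp764: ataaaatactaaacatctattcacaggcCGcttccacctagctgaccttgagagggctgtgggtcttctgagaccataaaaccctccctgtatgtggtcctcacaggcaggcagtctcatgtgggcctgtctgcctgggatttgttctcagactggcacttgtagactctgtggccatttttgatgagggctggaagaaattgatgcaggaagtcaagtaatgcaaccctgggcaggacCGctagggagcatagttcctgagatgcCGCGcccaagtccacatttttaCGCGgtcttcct
Zfp57: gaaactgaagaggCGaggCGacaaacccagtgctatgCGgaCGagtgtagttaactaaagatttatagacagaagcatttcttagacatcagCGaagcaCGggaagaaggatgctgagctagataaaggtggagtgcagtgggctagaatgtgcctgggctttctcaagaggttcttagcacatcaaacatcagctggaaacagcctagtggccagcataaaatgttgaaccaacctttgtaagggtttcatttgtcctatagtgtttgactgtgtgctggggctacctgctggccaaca
The Zfp422 window lay inside the H3K4me3 peak of both lines. That of Zfp57 lay inside an H3K27me3 domain in both. Too few isolated genes (78.2%) and genes overall (76.2%) had a RefSeq promoter for a comparison of base composition between the sets.

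The libraries differed in depth. Relative to IgG, the depth of KO over sg-Ctrl was 3.16-fold for H3K27me3 and 1.27-fold for H3K4me3. The lists held between 5866175 (NPC) and 26811061 (H3K27me3 in KO) reads in distinct peaks. H3K4me3 marked 6 of 7 epithelial marker genes and 0 of 7 markers of blood, endothelium, muscle and neural crest. At the start site of Nup210 itself H3K4me3 gave 885 reads in the control and 913 in the knockout line (log2 ratio -0.41). This does not check the knockout, since the guide cuts further into the gene. A gene enters a list only with a peak, and 306 of the 367 protein-coding Zfp genes of RefSeq had an entry.

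Most listed Zfp genes were marked by H3K4me3. A peak within 4 kb of the start site was listed in both lines for 281 genes, in sg-Ctrl alone for 4 (Zfp595, Zfp773, Zfp820 and Zfp957), in KO alone for Zfp467 and in neither for 26. These are 90.1%, 1.28%, 0.321% and 8.33% of the listed Zfp genes, against 65.7%, 1.38%, 1.29% and 31.6% of all listed genes. Counting also the RefSeq Zfp genes with no entry, 75.3% of 373 had both peaks. Reads in the densest peak of each gene were divided by the library size ratio and by the peak's length, giving scaled reads per kb. The median was 618 per kb in clustered and 522 in isolated genes in sg-Ctrl cells, against 543 over all genes. In KO cells the medians were 427, 368 and 382.

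H3K4me3 was lower in KO cells at most Zfp start sites, by about as much as at genes in general. The log2 ratio of KO to sg-Ctrl was below 0 at 260 of 281 genes. Its median was -0.48 (95% interval of the median -0.54 to -0.43) in 154 clustered genes and -0.51 (-0.58 to -0.40) in 127 isolated genes, against -0.50 over all 12197 genes with both peaks. A common shift of this kind depends on the scaling. When the libraries were scaled by reads in shared start site peaks, the medians were -0.06 in clustered and -0.09 in isolated genes and -0.08 over all genes.

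The clustered and isolated genes differed more in their spread than in their median. At least 2-fold lower H3K4me3 in KO was found at 36 Zfp genes, where 9.66% of all genes tested were as low. They were 12 clustered genes, or 7.79% (4.51 to 13.1%), and 24 isolated genes, or 18.9% (13.04 to 26.6%). No Zfp gene was 2-fold higher, where 0.525% of all genes were. The quartiles ran from -0.67 to -0.29 in clustered and from -0.87 to -0.23 in isolated genes. Part of the isolated excess stood on chromosomes 4 and 5, where 21.7% of all genes were 2-fold lower and 9 of 22 isolated genes were. Without these chromosomes 15 of 105 isolated genes (14.3%) and 11 of 152 clustered genes (7.24%) were 2-fold lower, against 7.92% of all genes. The median of all genes was also low on chromosome 18, at -0.72, as on chromosomes 4 and 5. Without all 3 chromosomes 12 of 99 isolated (12.1%) and 9 of 149 clustered genes (6.04%) were 2-fold lower, against 7.61% of all genes. Relative to the median of its own chromosome 2 clustered genes and 1 isolated gene were 2-fold lower, where 0.844% of all genes were, so the order of the sets was not kept, and 1 Zfp gene was 2-fold higher, where 2.16% were.

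**Figure D1:**
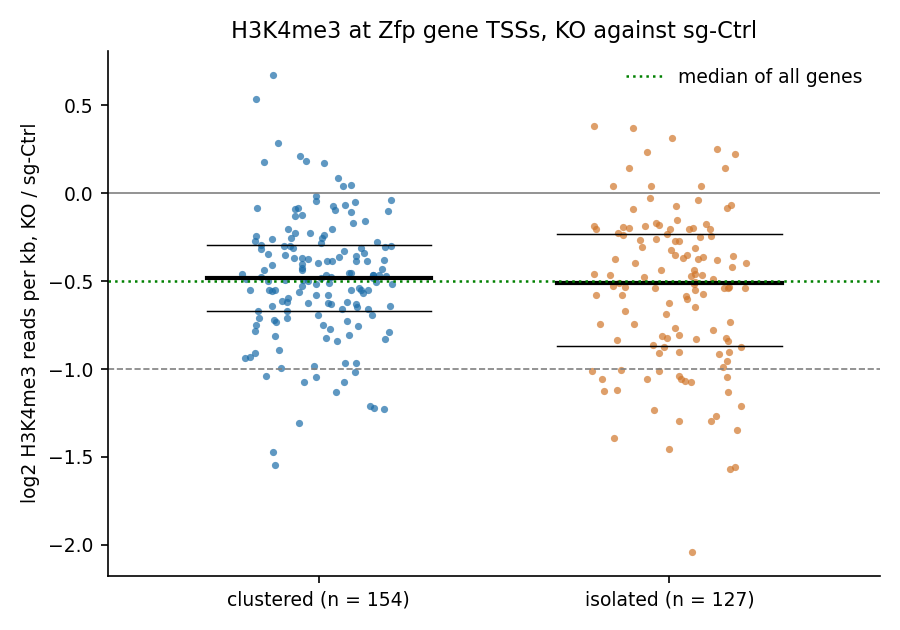
Log2 ratio of scaled H3K4me3 reads per kb in KO over sg-Ctrl (vertical axis) for 154 clustered and 127 isolated Zfp genes, with 1 point per gene, the median (thick line) and quartiles (thin lines). Both medians lie at the dotted median of all genes, and 12 clustered and 24 isolated points lie at or below the dashed line of a 2-fold loss.

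The largest loss was at Zfp422, an isolated gene on chromosome 6. Its peak had 2038 reads over 2400 bp in sg-Ctrl and 525 reads over 2000 bp in KO. Scaled per kb these were 800.5 and 194.8, a log2 ratio of -2.04 (-2.18 to -1.90, counting error only). Zfp512, on chromosome 5, went from 5140 to 2755 reads, with a log2 ratio of -1.57. Zfp292, on chromosome 4, went from 2180 to 898 reads, with a log2 ratio of -1.45. In these 3 genes the reads themselves fell: the total of scaled reads at the start site fell by 2.30, 1.24 and 1.53 on the log2 scale. Over all genes of chromosomes 4 and 5 the median of this total was -0.71, and 22.3% were 2-fold lower in it. Per kb and relative to the median of the chromosome, Zfp422 stood at -1.45, Zfp512 at -0.845 and Zfp292 at -0.735.

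Other large losses per kb came with a wider peak. At the clustered gene Zfp563, on chromosome 17, reads rose from 2131 in sg-Ctrl to 2688 in KO while the peak widened from 2400 to 6600 bp, so that reads per kb had a log2 ratio of -1.47 and total scaled reads one of -0.50. Zfp667, a clustered gene on chromosome 7, widened from 1800 to 5000 bp, with log2 ratios of -1.54 per kb and -0.37 in total. Zfp169 widened from 2000 to 4200 bp and Zfp113 from 2200 to 3800 bp, with log2 ratios per kb of -1.35 and -1.39. Zfp951 had few reads, 268 before and 185 after the knockout, and a log2 ratio of -1.56.

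Of the 36 genes at least 2-fold lower per kb, 27 had a wider peak in KO: 11 of 12 clustered genes and 16 of 24 isolated ones. In total scaled reads 1 of these 12 clustered and 10 of these 24 isolated genes were also 2-fold lower. Over all Zfp genes with both peaks, 5 clustered (3.25%) and 13 isolated genes (10.2%) were 2-fold lower in total scaled reads, where 7.29% of all genes were. A wider KO peak was common to 64.8% of Zfp genes and 63.1% of all genes. The median width went from 2800 to 3500 bp in clustered and from 3600 to 4400 bp in isolated genes, and from 3600 to 4200 bp over all genes.

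**Figure D2:**
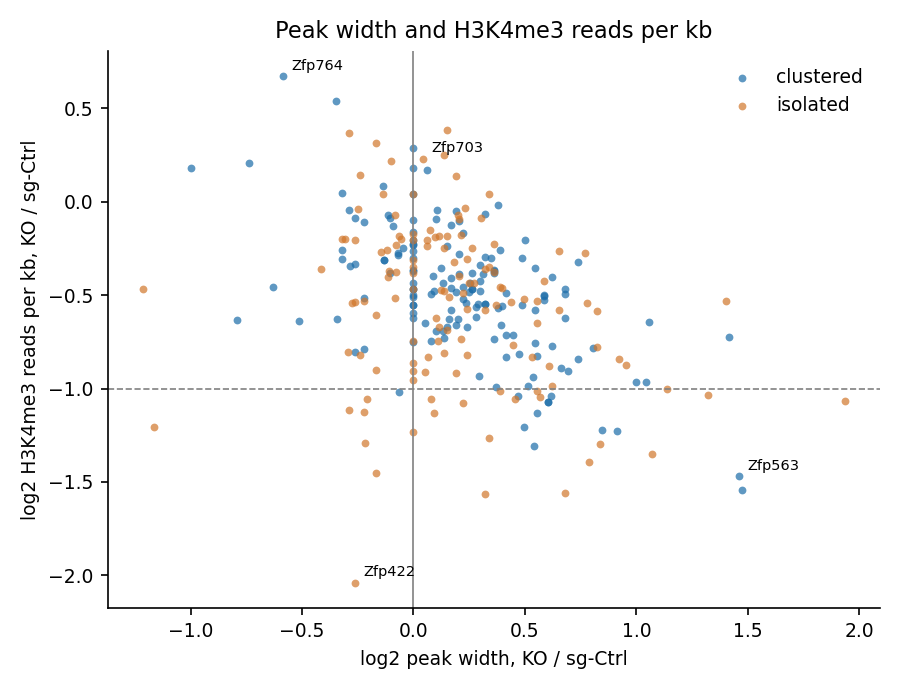
Log2 ratio of H3K4me3 peak width in KO over sg-Ctrl (horizontal axis) against the log2 ratio of scaled reads per kb (vertical axis) for 281 Zfp genes, with the dashed line at a 2-fold loss. Of the 36 genes at or below that line, 27 lie to the right of 0, where the KO peak is wider, and Zfp422 lies to the left with the lowest ratio.

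The genes at the other end had ratios above 0 against a general loss. Zfp764, a clustered gene on chromosome 7, gave 459 reads over 1800 bp in sg-Ctrl and 620 over 1200 bp in KO, with a log2 ratio of 0.67 per kb and 0.09 in total scaled reads. Zfp30, also clustered on chromosome 7, gave 847 and 1227 reads and a ratio of 0.54, with 0.19 in total. In both the KO peak was the narrower one. Zfp703, whose human counterpart is an oncogene of luminal breast tumours, gave 2251 and 3462 reads over peaks of 6400 and 6600 bp, with log2 ratios of 0.23 per kb and 0.28 in total. Zfp185 (290 and 534 reads), Zfp931 (328 and 545), Zfp108 (173 and 268), Zfp3 (1115 and 1565) and Zfp828 (2338 and 3138) had log2 ratios between 0.25 and 0.38. Relative to the median of all genes 2 Zfp genes, Zfp764 and Zfp30, were at least 2-fold higher, where 2.20% of all genes were, and 4 were at least 2-fold lower, where 0.926% were.

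The large clusters did not behave alike. A total of 12 clusters held 5 or more members and 93 genes between them. Their median log2 ratios ran from -1.01 to -0.37, and 8 of the 12 held no gene that was 2-fold lower. Among all genes tested 9.66% were as low. The lowest medians were those of the 3 clusters on chromosome 17. Zfp760 to Zfp943 had a median of -1.01 over 4 genes, Zfp871 to Zfp563 one of -0.77 over 7 genes, and Zfp677 to Zfp948 one of -0.76 over 5 genes. All genes of chromosome 17 had a median of -0.43, as did its 9 isolated Zfp genes, at -0.44. The 25 clustered Zfp genes of chromosome 17 had a median of -0.71 (-0.83 to -0.56). Of them 4 (16%) were 2-fold lower, where 5.70% of all genes of the chromosome were. Of these 4, Zfp942 and Zfp943 share 1 peak.

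On chromosome 17 the lower density came with wider peaks. In its 3 large clusters 15 of 16 genes had a wider KO peak, the median width going from 3800 to 4900 bp. Their median log2 ratio was -0.80 per kb and -0.41 in total scaled reads. No gene was 2-fold lower in the total, where 2.69% of all genes of the chromosome were. The 42 genes in the 5 large clusters of chromosome 7 had medians of -0.43 per kb and -0.26 in total, and 23 of 42 widened. None of them was 2-fold lower per kb, where 3.25% of all genes of chromosome 7 were. The largest cluster, Zfp84 to Zfp146 on chromosome 7, held 15 genes over 401 kb with log2 ratios from -0.69 (Zfp84) to 0.54 (Zfp30). The other chromosome 7 clusters were Zfp180 to Zfp94, with a median of -0.50, Zfp553 to Zfp689, with -0.37, Zfp628 to Zfp580, with -0.43, and Zfp329 to Zfp446, with -0.48. On chromosome 13 Zfp712 to Zfp748 had a median of -0.37 over 12 genes, and Zfp786 to Zfp746 on chromosome 6 had -0.43 over 7. Zfp868 to Zfp866 on chromosome 8 had a median of -0.47 and Zfp560 to Zfp846 on chromosome 9 one of -0.63, each over 5 genes.

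**Figure D3:**
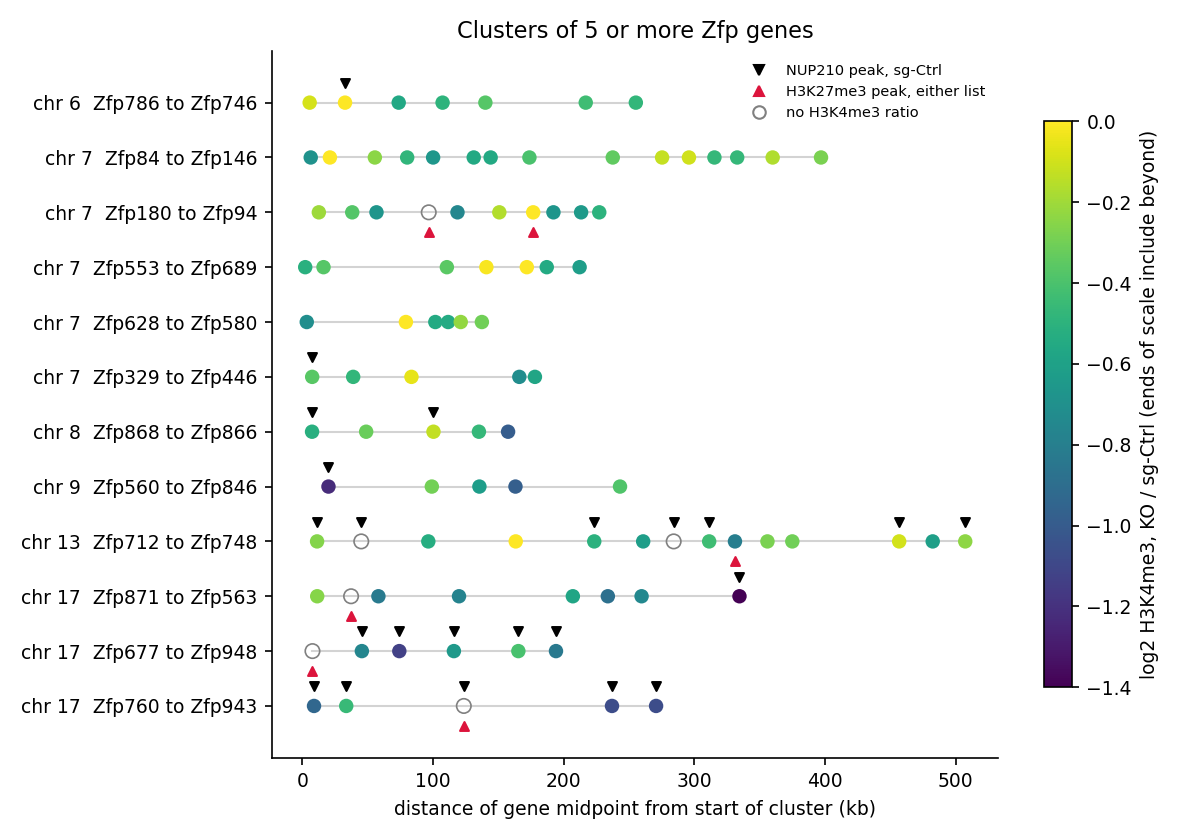
The 12 clusters of 5 or more Zfp genes, with each gene placed by the distance of its midpoint from the start of its cluster (horizontal axis, kb) and coloured by its log2 H3K4me3 ratio of KO over sg-Ctrl. Black triangles mark NUP210 peaks, and red triangles mark H3K27me3 peaks in either line. A NUP210 peak lay on 11 of 19 genes in the chromosome 17 clusters and 1 of 43 in the chromosome 7 clusters. Of all genes of these chromosomes 27.9% and 16.0% had one.

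NUP210 occupancy also differed between the large clusters. In sg-Ctrl cells a NUP210 peak lay on the gene body of 1 of the 43 genes in the large clusters of chromosome 7, of 11 of the 19 in those of chromosome 17, and of 11 of the 31 in the other 4 large clusters. The pore antibody gave 0 of 43, 13 of 19 and 4 of 31. Of all genes of chromosome 7, 16.0% had a NUP210 peak and 10.6% an NPC peak. On chromosome 17 these shares were 27.9% and 26.6%, and over all chromosomes 33.9% and 30.8%. In Zfp677 to Zfp948 5 of 6 genes had a NUP210 peak and 6 of 6 an NPC peak, and in Zfp760 to Zfp943 all 5 had both. Zfp871 to Zfp563, on the same chromosome and also low in H3K4me3, had NUP210 on 1 of 8, so the order by NUP210 was not that by H3K4me3. The 9, 5 and 4 other genes that lie within these clusters had no NUP210 peak, and 2 of the 5 on chromosome 17 had an NPC peak. These other genes include zinc finger genes that the symbol rule leaves out, namely Zfp874a, Zfp874b and Zscan22. The cluster genes were longer on chromosome 17 (median 16.5 kb) than on chromosome 7 (9.75 kb), and the part of length in the difference was not tested.

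These peaks were broad and low. On the chromosome 17 clusters the fold over IgG ran from 0.983 at Zfp51, whose peak had 495 ChIP and 498 IgG reads, to 1.58 at Zfp53, with 362 and 226. Some were shared by neighbours, as 1 peak covered Zfp52 and Zfp948 and another Zfp760 and Zfp229. Over all Zfp genes 84 had a NUP210 peak, 65 of them with a false discovery rate (FDR) of at most 0.05 against IgG. The median fold was 1.23 and 14 were below 1. A fold of at least 2 was reached by 3 genes, where 2.14% of all genes reached it. They were Zfp236, with 115 ChIP and 39 IgG reads and 2.92-fold, Zfp58, with 231 and 83 reads and 2.75-fold, and Zfp101, with 62 and 26 reads and 2.36-fold. Next came Zfp711 (1.78-fold), Zfp442 (1.76), Zfp644 (1.69), Zfp560 (1.66) and Zfp605 (1.65). The highest NPC folds were 1.63 at Zfp438, 1.59 at Zfp959, and 1.48 at both Zfp949 and Zfp52.

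Over all chromosomes NUP210 lay on a smaller share of clustered than of isolated Zfp genes. It had a peak on 36 of 170 (21.2%, 15.7 to 27.9%) against 48 of 142 (33.8%, 26.5 to 41.9%), where 33.9% of all genes had one. The intervals just overlap, and the difference was not tested. For NPC the counts were 28 (16.5%, 11.6 to 22.8%) and 41 (28.9%, 22.1 to 36.8%), where 30.8% of all genes had a peak. Of these 69 NPC genes 33 (47.8%) had an FDR of at most 0.05, against 65.2% over all genes, and 19 had a fold below 1. The gap was narrower without chromosome 7. On that chromosome 1 of 64 clustered and 1 of 17 isolated Zfp genes had a NUP210 peak, against 16.0% of all genes of the chromosome, and 0 had an NPC peak. Elsewhere the NUP210 shares were 33.0% of clustered and 37.6% of isolated genes, and the NPC shares 26.4% and 32.8%. On chromosome 17 they were 15 of 28 clustered (53.6%) and 5 of 10 isolated genes, against 27.9% of all genes.

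Gene length moved with the share as well. Among genes of 10 to 50 kb, 26.8% of clustered and 34.8% of isolated Zfp genes had a NUP210 peak, against 27.1% of all genes. Up to 10 kb the counts were 2 of 43 clustered (4.65%) and 6 of 31 isolated genes (19.4%), against 24.01% of all genes. Counting also the RefSeq Zfp genes with no entry, both in the total and as neighbours, the shares were 17.4% of 213 clustered and 29.4% of 160 isolated genes.

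Genes with and without a NUP210 peak were set side by side for H3K4me3. Of clustered genes 6 of 31 with a NUP210 peak (19.4%) and 6 of 123 without (4.88%) were 2-fold lower. Of isolated genes 5 of 43 with the peak (11.6%) and 19 of 84 without (22.6%) were. Over all genes the shares were 13.5% and 8.29%. The direction was thus opposite in clustered and isolated genes, a difference that was not tested. Without chromosome 17 the clustered counts were 2 of 17 (11.8%) and 6 of 112 (5.36%). No chromosome was left out of the isolated counts. Chromosomes 4 and 5 held 9 of the 24 isolated genes that were 2-fold lower, and their part in the direction was not tested. The median log2 ratios differed little, at -0.50 with and -0.48 without the peak in clustered genes and at -0.53 and -0.50 in isolated ones.

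H3K27me3 was rare on Zfp genes. In sg-Ctrl cells 16 of 170 clustered genes (9.41%, 5.88 to 14.7%) and 16 of 142 isolated genes (11.3%, 7.06 to 17.5%) had a peak on the gene body, where 26.8% of all genes had one. In KO cells the counts were 15 (8.82%) and 16 (11.3%), where 27.6% of all genes had one. Both sets stood below all genes, and the intervals of the 2 sets overlapped. Among genes of 10 to 50 kb the sg-Ctrl shares were 9.45% and 12.4%, against 21.3% of all genes. Of the 32 Zfp genes with H3K27me3 in sg-Ctrl cells, 20 had no H3K4me3 peak there (62.5%) and 12 had both marks, while 85.5% of all genes with H3K27me3 had no H3K4me3 peak. Of the 285 Zfp genes with H3K4me3, 4.21% also had H3K27me3, against 5.81% over all genes. Of the 27 listed Zfp genes without H3K4me3 in sg-Ctrl, 74.1% had H3K27me3, against 69.5% of all such genes. Within each of these classes the Zfp genes thus stood near all genes. The classes differ in size, as 90.1% of listed Zfp genes and 65.7% of all listed genes had H3K4me3 in both lines. Only Zfp882, on chromosome 8, had a peak in all 6 lists.

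**Figure D4:**
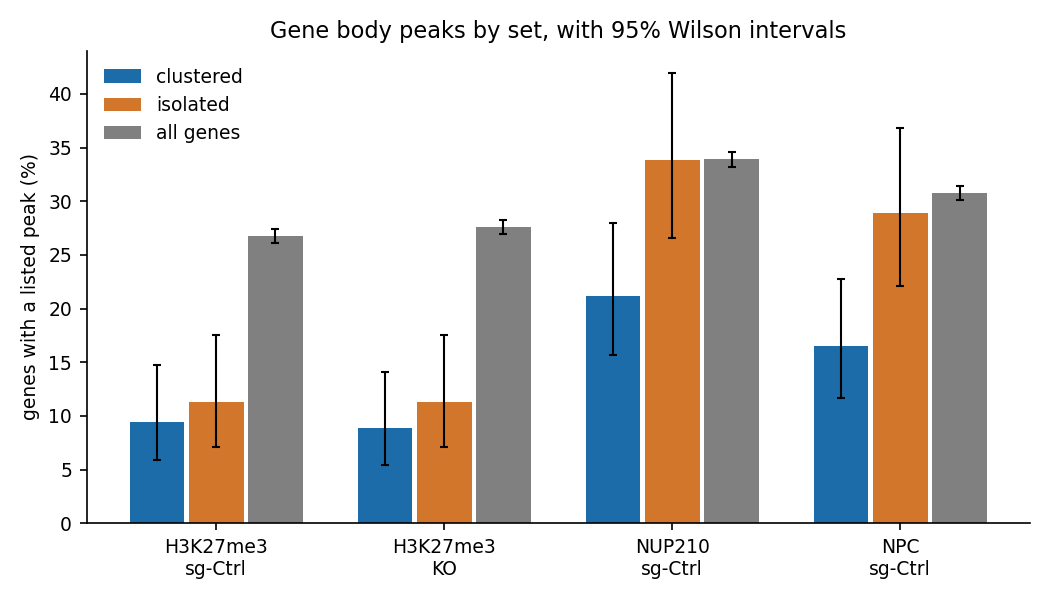
Share of clustered Zfp genes, isolated Zfp genes and all genes with a listed peak on the gene body (vertical axis, %), with H3K27me3 in both lines and the pore proteins in sg-Ctrl, with bars from 0 and 95% Wilson intervals. H3K27me3 stands at 8.82 to 11.3% in both Zfp sets and above 26% in all genes, and NUP210 at 21.2% in clustered and 33.8% in isolated genes.

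The H3K27me3 that was present mostly stayed in place, as it did over all genes. Of 36 Zfp genes with a peak in either line 27 had it in both, 5 in sg-Ctrl alone and 4 in KO alone. Of the 5853 genes of any kind with a peak in either line, 4234 had it in both, 737 in sg-Ctrl alone and 882 in KO alone. These 737 and 882 genes are 3.97% and 4.75% of all 18562 listed genes, a wider base than genes with a peak. In the 27 the covered length was equal in 13 (48.1%), longer in KO in 9 (33.3%) and shorter in 5 (18.5%), against 39.8%, 38.3% and 21.9% of all genes with both peaks. It was at least 2-fold longer in 6, where 11.4% of genes with both peaks were, and 2-fold shorter in 1, Zfp811, where 6.94% were. Covered length summed over Zfp genes went from 343 kb in sg-Ctrl to 453 kb in KO, an increase of 32%. Without 1 gene, Zfp423, it went from 337 to 343 kb, an increase of 1.70%. The sum over all genes with a peak rose by 10.5%. With every gene counted, clustered genes went from 163 to 138 kb and isolated genes from 180.4 to 314 kb. Each of these rested on 1 gene: without Zfp820 the clustered sum went from 134 to 138 kb, in the other direction, and without Zfp423 the isolated sum went from 174 to 204 kb.

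Zfp423, a developmental regulator of fat and brain, had the largest change. Its gene body of 298 kb on chromosome 8 carried 2 H3K27me3 peaks over 6 kb in sg-Ctrl and 10 peaks over 110 kb in KO. Scaled reads per kb inside the peaks were 45.7 in sg-Ctrl and 25.2 in KO, a lower mean over the longer coverage. Zfp536, a neuronal repressor, had no H3K27me3 peak in sg-Ctrl and 4 over 17 kb in KO, with 227 ChIP and 19 IgG reads in the strongest. Neither gene had an H3K4me3 peak in either line. The KO library was the deeper one, and the part of depth in longer coverage was not tested.

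Zfp820, in the Zfp760 to Zfp943 cluster, went the other way. A peak with 898 ChIP and 624 IgG reads covered 28.8 kb of it in sg-Ctrl, at 1.70-fold over IgG, and none was listed in KO. It also had an H3K4me3 peak in sg-Ctrl alone, of 28 reads. Zfp947, an isolated gene on chromosome 17, went from 10 to 21.6 kb and kept H3K4me3, with 668 reads in the control and 709 in the knockout line. Zfp735, on chromosome 11, went from 20.03 to 25.03 kb, and Zfp541, on chromosome 7, from 19.1 to 15.1 kb. Coverage hardly moved at Zfp618 (31.0 kb in sg-Ctrl and 31.4 kb in KO) and was the same in both lines at Zfp182 (25.04 kb) and Zfp616 (17.1 kb).

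**Figure D5:**
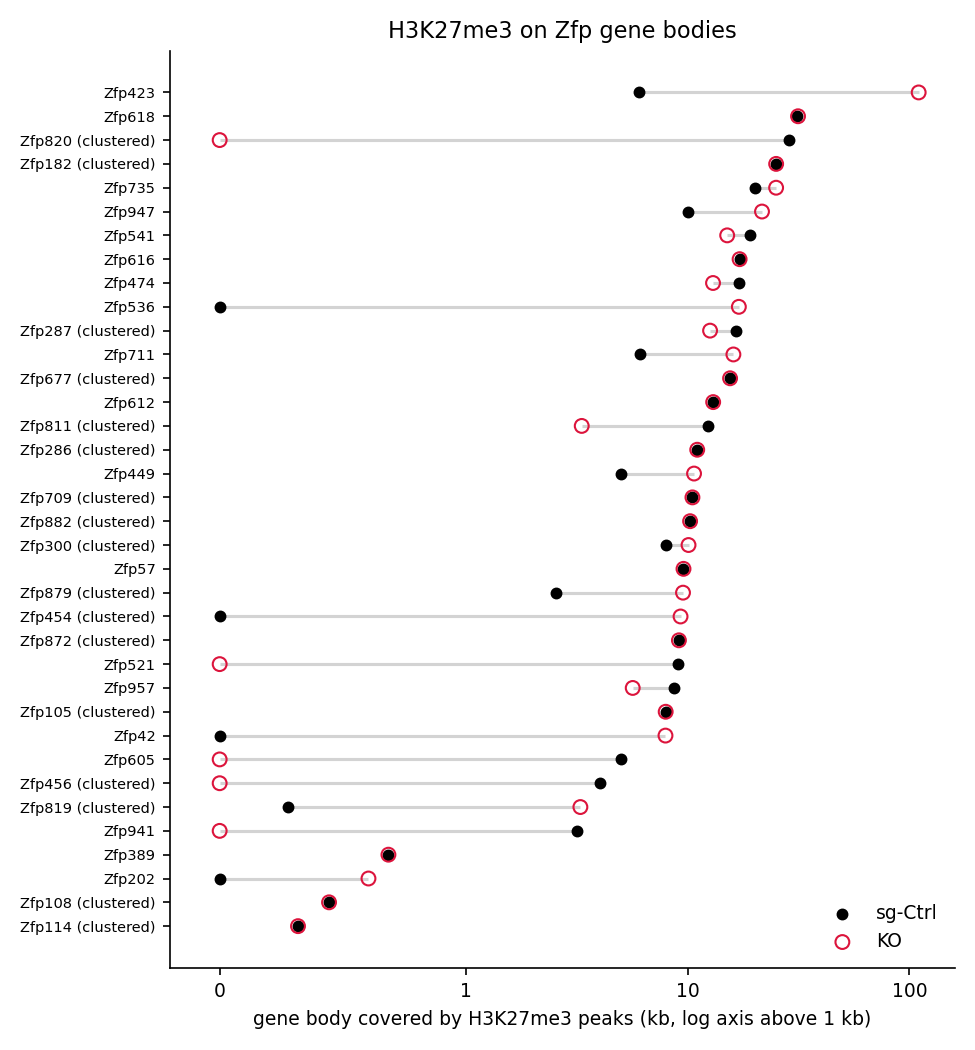
Length of gene body covered by H3K27me3 peaks (horizontal axis, kb, log axis above 1 kb) in sg-Ctrl (filled) and KO (open) for the 36 Zfp genes with a peak in either line. In 13 genes both points coincide, Zfp423 moves from 6 to 110 kb, and Zfp820 falls from 28.8 kb to no listed peak.

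Several Zfp genes have established roles. Zfp57 and Zfp445 both maintain imprints, and their chromatin was opposite. Zfp57 was covered by 9.57 kb of H3K27me3 in both lines, and Zfp445 had 4105 H3K4me3 reads in the control and 4218 in the knockout line, for a log2 ratio of -0.44. Zfp568, which silences a placental transcript of Igf2, and Zfp809, which silences retroviruses, had 3368 and 2769 reads (-0.34) and 1934 and 2266 reads (-0.38). The pluripotency gene Zfp42, known as Rex1, had no H3K4me3 and 7.93 kb of H3K27me3 in KO alone. Zfp521, a developmental relative of Zfp423, had 9 kb of H3K27me3 in sg-Ctrl alone.

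Zfp36, which directs mRNA decay, had 4342 and 4446 reads and a log2 ratio of -0.31. Zfp217, the homologue of a breast cancer oncogene, had 10692 and 9558 reads and a ratio of -0.20. Zfp91, an E3 ubiquitin ligase, had 13023 and 8051 reads and a ratio of -1.13 (-1.17 to -1.09). Of the 18 genes with a known role 13 had a ratio. Zfp91 was the 1 of these 13 to be 2-fold lower, where 9.66% of all genes tested were. Zfp207, a spindle protein, followed at -0.99 and the promoter factor Zfp143 at -0.74. Zfp598, which senses stalled ribosomes, stood at -0.38, and Zfp281, Zfp335 and Zfp410 at -0.21, -0.19 and 0.14. The 13 of these genes with both peaks had a median of -0.34, against -0.50 over all genes.

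The cofactors that KRAB proteins work through kept H3K4me3. All 18 that were listed had a peak in both lines, with a median log2 ratio of -0.36. Trim28 went from 1764 to 1957 reads (-0.13), and Setdb1 573 and 706 (-0.04). Only Mphosph8, of the HUSH silencing complex, was 2-fold lower, at -1.05, with 5417 and 3749 reads. That is 1 of 18, where 9.66% of all genes tested were as low. The heterochromatin proteins Cbx1, Cbx3 and Cbx5 stood at -0.95, -0.61 and -0.58. The DNA methyltransferases Dnmt1, Dnmt3a and Dnmt3b stood at -0.43, 0.12 and 0.15. None of the cofactors had H3K27me3, where 26.8% of all genes had it in sg-Ctrl and 27.6% in KO. A NUP210 peak lay on 4 of the 18, where 33.9% of all genes had one. Their folds over IgG ran from 0.898 at Mphosph8 to 1.89 at Atf7ip.

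The KRAB box, as found by sequence pattern, was set against the same measures. A box that the pattern missed counts as absent here, so the genes without a match may include KRAB genes. Clustered genes with a KRAB box had a median log2 ratio of -0.48 (105 genes) and those without one also -0.48 (47 genes). In isolated genes the medians were -0.55 (37 genes) and -0.49 (87 genes). The 2-fold lower share was 8.57% and 6.38% in clustered genes with and without the box and 21.6% and 18.4% in isolated ones. Of all genes tested, 9.66% were as low. NUP210 lay on 29 of 116 clustered genes with the box (25%) and on 7 of 52 without (13.5%), and on 15 of 39 (38.5%) and 32 of 100 (32%) isolated genes. Of all genes, 33.9% had a NUP210 peak. In sg-Ctrl cells H3K27me3 lay on 12 of 116 clustered genes with the box (10.3%) and on 4 of 52 without (7.69%). In isolated genes the counts were 6 of 39 (15.4%) and 9 of 100 (9%), where 26.8% of all genes had a peak.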

How the data were processed

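ChIP-seq of 4T1 cells was read from 6 peak lists with 1 library per condition, which the authors made with SICER against IgG (window 200 bp for H3K4me3, 1000 bp for the others). Per the labels the processing used Bowtie2, and mm9, mm10 and NCBIM37 are named without roles; gene starts or ends of 86.6% of Zfp genes lay within 50 bp of GRCm38.p6 and 2.27% of NCBIM37, so coordinates are in the former build, of which mm10 is another name. For each peak the authors deposited raw ChIP and IgG read counts, the p-value and FDR, and the ratio of both libraries as a scaled fold. Genes and peaks are paired by the authors: peaks within 4 kb of the start site for H3K4me3, and on the gene body for the others. The mapping filter is not given in the sources used here, so reads at near-identical Zfp copies are uncertain.

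The ratio of ChIP to IgG library size was recovered from counts and fold in each list (H3K27me3 0.847 for sg-Ctrl and 2.68 for KO, H3K4me3 1.06 and 1.35 likewise, NUP210 1.01, NPC 0.606), and reads were divided by it. Total depth is otherwise unknown. H3K4me3 ratios used the peak with most reads per kb and carry exact conditional binomial intervals. Shares carry 95% Wilson intervals and medians order-statistic intervals. All cover counting error or the spread over genes, not the difference between cultures, and PCR copies are not independent molecules. The intervals over genes take each gene as independent. Of 285 Zfp genes with an H3K4me3 peak in sg-Ctrl, 12 shared it with another Zfp gene and 38 with a gene outside the set. A call means at least 2-fold. Fingers and KRAB boxes were counted by pattern in proteins translated from the NCBIM37 transcripts of 307 of 312 genes.

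The Zfp genes, clusters and gene lists were chosen with earlier results of these data known. Genes named are the 8 with the largest fall and the 8 with the largest rise in H3K4me3 relative to all genes (overlapping peaks, at least 100 reads), the 8 with the longest H3K27me3 and any with at least 10 kb in 1 list alone, the 8 highest NUP210 and 4 highest NPC folds, all clusters of 5 or more, 18 genes of known role and the cofactors. The genes at the distance limit, Zfp595, Zfp773, Zfp957, Zfp467, Zfp811, Zfp882 and the members of the chromosome 17 clusters were named after their values were seen. So were Zfp874a, Zfp874b and Zscan22. Alternatives were other scalings, peak choices, FDR and fold limits, length classes and distances. On simulated lists that kept the sg-Ctrl peak intervals, 200 of 200 genes set 4-fold lower were recovered. Peak width did not vary there, so this checks the calculation alone and not the calls made here. RNA-seq (4 samples) was not analysed here, and the 3 IgG samples were used only through their reads in the lists. Python 3.11.15, pandas 2.3.3, scipy 1.17.1 and biopython 1.88 were used.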

Additional observations from a re-analysis of the deposited data

How the results depend on the processing

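No paired analysis was possible because each ChIP condition had 1 library. Of 137 alternative values for 15 results, each for 1 set, 110 stayed within the interval of the value reported (counts within 1.5 times) and 27 moved beyond it. The order of clustered and isolated genes was kept in 56 of 64 comparisons, turned in 7 and was equal in 1. It turned for the H3K4me3 median relative to the chromosome, without chromosomes 4 and 5 (-0.48 and -0.46) and without 18 as well (-0.48 and -0.44), for the 2-fold lower share relative to the chromosome, for NUP210 at a fold of at least 2, and for H3K27me3 without chromosome 7 (12.3% and 11.2% in sg-Ctrl, 11.3% and 11.2% in KO). For H3K4me3, with shared start site reads the medians were -0.0585 in clustered and -0.0922 in isolated genes, with 1.30% and 3.15% of genes 2-fold lower. In total scaled reads the medians were -0.28 and -0.31, with 3.25% and 10.2% lower, and relative to the chromosome median -0.0363 and -0.0242, with 1.30% and 0.787% lower. By fold over IgG 16.9% of clustered, 22.05% of isolated and 17.5% of all genes were lower. Without chromosomes 4, 5 and 18 12.1% of isolated genes were. A clustering distance of 50 kb left 4.48% of clustered genes lower. For NUP210 an FDR of at most 0.01 gave 15.3% of clustered and 23.2% of isolated genes, and a fold of at least 2 gave 1.18% and 0.704%. For NPC these were 5.88% and 12.7%, then 0% and 0%. Leaving out single chromosomes, chosen after seeing the data, gave clustered shares for NUP210 of 33.0% without chromosome 7 and 14.8% without chromosome 17, and for NPC of 26.4% and 7.04%. The other alternatives chosen after seeing the data (rebuilt gene bodies, further RefSeq neighbours, only chromosomes 4 and 5 left out, overlapping peaks) moved no value beyond its interval. H3K27me3 shares stayed within theirs under each alternative run. NUP210 and NPC peaks stand at folds near 1, which limits any single gene's call.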

Other observations

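2 related families of zinc finger genes were set beside the Zfp genes. The Zbtb genes, whose zinc fingers are joined to a BTB domain, numbered 34. H3K4me3 was listed in both lines for 32 of them, with a median log2 ratio of -0.36, and 2 were at least 2-fold lower in KO. NUP210 lay on 10 of 34 and H3K27me3 on 1 in each line. The Zscan and Zkscan genes, whose fingers are joined to a SCAN domain, numbered 20. Their 17 genes with both H3K4me3 peaks had a median of -0.63, with 4 at least 2-fold lower. NUP210 lay on 1 of 20, NPC on 0 of 20, and H3K27me3 on 3 in each line. Over all genes the median log2 ratio was -0.50, and 9.66% of those tested were at least 2-fold lower. NUP210 lay on 33.9% of all genes, NPC on 30.8%, and H3K27me3 on 26.8% in sg-Ctrl and 27.6% in KO.

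The Zfp genes of RefSeq with no entry in the lists were unevenly placed, with 17 of 61 on chromosome 4 and 10 each on chromosomes 2 and 7. No value is given for them. At Zfp882, the gene with a peak in all 6 lists, H3K27me3 covered 10.2 kb in both lines and H3K4me3 gave 411 reads in sg-Ctrl and 486 in KO.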
